A study of Drosophila melanogaster with 66 samples.

Results

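In embryos 8-10 hours old, the transcripts in the gradient fractions of the largest polysomes were compared with those in the fractions of the smallest. Extracts were sedimented through 2 sucrose gradients, and RNA of fractions 10, 11 and 12 (heavy polysomes) was set against RNA of fractions 6 and 7 (light polysomes) of the same gradient. Sample titles gave the age, fraction and replicate, and they picked out 6 heavy and 4 light arrays, 10 of the 66 in the series. The measure for each gene was the mean log2 signal of the heavy fractions minus that of the light fractions, taken within each gradient and averaged over the 2 gradients.

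The embryos were Canton S, a wild-type strain of Drosophila melanogaster, collected over 2 hours and aged to 8-10 hours, when the germ band retracts and organs begin to form. Whole dechorionated embryos were kept in cycloheximide before lysis, and nuclei and debris were spun out, so that the cytoplasm of all cell types was pooled in every fraction. Embryos of 0-2 and 4-6 hours were handled in the same way, with 2 gradients and 10 such arrays per age. A further 8-10 hour gradient, with no replicate, was lysed and run in EDTA buffer with cycloheximide, and its fractions were pooled as 10-12 and 6-7. An array shows each transcript relative to the other transcripts of its fraction, because the arrays had been normalized by RMA, so a difference between fractions is not a difference in the amount of RNA.

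As background, a translating mRNA carries several ribosomes at once, and each added ribosome makes the complex sediment faster. A long reading frame has room for more ribosomes than a short one, and a frequently initiated mRNA carries more than a rarely initiated one. Cycloheximide halts elongation and keeps ribosomes in place, whereas EDTA removes the magnesium that holds the ribosomal subunits together and releases them from mRNA. The study removed mRNAs that EDTA did not release. No such filter was applied here, so a heavy or light fraction may also hold complexes other than polysomes.

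In unfractionated RNA, all 6 maternal and germ plasm markers were lower in both 8-10 hour arrays than in both 0-2 hour arrays, with a median change of -4.61 on the log2 scale. All 5 neuron and glia markers and 4 of 5 hemocyte markers were higher, Hml being the exception. The neural marker nrv3 was low all the same, at 4.325 and 5.274 in the 8-10 hour arrays. The 4 adult sensory markers that could be named stayed between 3.97 and 4.66 in the first 8-10 hour array, near the floor of the array. For cuticle genes the replicates of unfractionated RNA were far apart: among the 8 Osiris genes named below, replicate 2 of 8-10 hours was 1.19 to 2.46 above replicate 1 on the log2 scale. The part that this gap plays in the gradients was not tested.

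The gradients were offset from one another by about 1 fraction. Across the 9384 probe sets tested, fraction 8 of gradient 1 was most like fraction 7 of gradient 2 (r = 0.98), and fractions 9, 10, 11 and 12 of gradient 1 were most like fractions 8, 9, 10 and 11 of gradient 2 (r = 0.98 for each). Array pairs of the same number correlated at 0.937 for fraction 9 and 0.935 for fraction 10. More genes peaked in fraction 12 in gradient 1 (1551 of 7374) than in gradient 2 (719 of 7374). Even so, the heavy minus light differences of the 2 gradients correlated at 0.93 across probe sets, 0.97 after a shift by 1 fraction and 0.63 after a shift the other way. These correlations describe the arrays and carry no test, since probe sets share the array they were read on.

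The heavy and light fractions held different transcripts. Of the 9384 probe sets tested, 5900 (62.9%) passed. Of 7374 genes with signal above the median of the array, 2866 (38.9%) were higher in heavy fractions and 1885 (25.6%) were higher in light fractions (64.4% in all) at an adjusted p below 0.05 in limma with Benjamini-Hochberg adjustment. The median gene differed by 0.22 on the log2 scale, by 0.25 in gradient 1 and by 0.20 in gradient 2, and single genes lay between -4.50 and 3.07. The sign was the same in both gradients for 6349 genes, or 86.1%. A difference past 1 in both gradients, which is a 2-fold change, was seen for 1312 genes (17.8%) towards heavy fractions and for 1130 genes (15.3%) towards light fractions.

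With 2 gradients limma gave every probe set the same standard error, 0.24, so that a call amounted to a difference past 0.51 in either direction and its adjusted p followed from its size alone. An exact sign-flip test over 2 gradients cannot give a p below 0.5, and the values of each gradient are therefore given beside the calls. The labels call the gradients biological replicates, and the p-values cover the spread between them and no more.

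**Figure D1:**
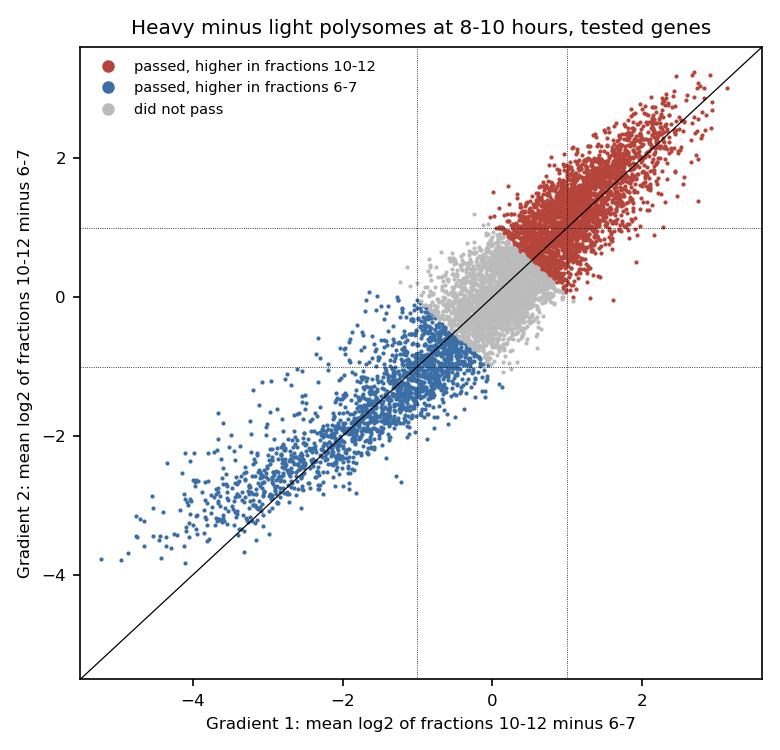
Heavy minus light difference (mean log2 of fractions 10-12 minus fractions 6-7) of each of 7374 tested genes in gradient 1 (x axis) and gradient 2 (y axis), coloured by the limma call. Dotted lines mark 1 and -1, and the points run along the diagonal from -4.50 to 3.07 on average, with 86.1% of genes on the same side of 0 in both gradients.

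At the light end, the 12 genes furthest from 0 in both gradients had differences of -5.22 to -3.79 in gradient 1 and -3.82 to -3.48 in gradient 2, which is 12.4-fold to 22.6-fold higher in light fractions. In all 12, the 6 heavy arrays lay below the 4 light arrays without overlap, as they did in 18.8% of all tested genes, and the choice of the 12 for their size in these gradients favours this. ox encodes a small subunit of respiratory complex III. Its log2 signal was 7.89, 7.81 and 7.61 in fractions 10, 11 and 12 of gradient 1 and 8.02, 7.93 and 8.97 in those of gradient 2, against 12.50 and 12.34 in fractions 6 and 7 of gradient 1 and 12.33 and 11.44 in those of gradient 2. The ox mRNA was thus 17.3-fold higher in light fractions (difference -4.11 ± 0.76, SD, n = 2 gradients), and its highest fraction was fraction 6 in both gradients.

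Lamtor4, a subunit of the Ragulator complex at the lysosome, read 6.52, 6.47 and 6.29 in the heavy fractions of gradient 1 and 6.64, 6.79 and 7.47 in those of gradient 2, against 10.27 and 10.80 in the light fractions of gradient 1 and 11.04 and 10.53 in those of gradient 2. Its difference was -3.96 ± 0.20 (SD, n = 2). The largest difference of all was that of CG14483, -5.22 in gradient 1 and -3.78 in gradient 2. Besides ox and Lamtor4, the light end held VepD, 8 genes known by CG numbers, and 1 developmental regulator.

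That regulator was Hand, a basic helix-loop-helix factor of heart and visceral muscle. Hand read 5.72, 5.43 and 4.84 in the heavy fractions of gradient 1 and 4.63, 5.21 and 6.05 in those of gradient 2, against 9.32 and 9.92 in the light fractions of gradient 1 and 8.73 and 9.08 in those of gradient 2. Its 15.5-fold excess in light fractions was seen at 8-10 hours, when unfractionated RNA read 7.83 and 7.26, whereas at 0-2 and 4-6 hours it read no more than 4.46 and the heavy minus light difference averaged -0.15 and -0.97.

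Light-end transcripts were also higher in fraction 12 of gradient 2 than in the fraction before it. Among the 1130 genes below -1 in both gradients, fraction 12 exceeded fraction 11 in 1104 genes in gradient 2 (median 0.53) and in 651 genes in gradient 1 (median 0.04). Relative to the other transcripts of the fraction, these thus read higher in the last fraction of gradient 2 than in its neighbour. The same count over all tested genes is not given here, so the rise cannot be called particular to light-end genes. Leaving fraction 12 out gave 5145 calls among probe sets, against 5900 with it.

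At the heavy end, the 12 leading genes had differences of 2.69 to 3.13 in gradient 1 and 2.66 to 3.24 in gradient 2, or 6.63-fold to 8.39-fold higher in heavy fractions. All 6 heavy arrays lay above the 4 light ones in each, as they did in 26.0% of all tested genes, and this too is favoured by the choice. ATPsynbeta encodes the catalytic subunit of the mitochondrial ATP synthase. It read 12.30, 13.58 and 13.32 in the heavy fractions of gradient 1 and 13.28, 13.64 and 12.96 in those of gradient 2, against 10.43 and 10.31 in the light fractions of gradient 1 and 10.11 and 9.99 in those of gradient 2. Its difference was 2.97 ± 0.39 (SD, n = 2), beside 2.42 and 3.56 in the gradients of 0-2 hours and 2.72 and 3.28 in those of 4-6 hours.

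Of the other heavy-end genes, 3 belong to families linked to the cuticle. TwdlF, of the Tweedle family of cuticle proteins, differed by 3.07 ± 0.08, and Osi14 and Osi20, of the Osiris family of transmembrane proteins expressed in epithelia that secrete cuticle, differed by 3.05 ± 0.20 and 2.81 ± 0.17 (SD, n = 2). Osi14 read 9.34, 11.16 and 10.20 in the heavy fractions of gradient 1 and 10.00, 9.20 and 9.08 in those of gradient 2, against 7.35 and 7.29 in the light fractions of gradient 1 and 6.15 and 6.32 in those of gradient 2. In unfractionated 8-10 hour RNA, Osi14 was 7.48 in one replicate and 9.94 in the other.

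Taken by symbol, after the values had been seen, 8 of the 12 tested Osiris genes and 14 of the 19 tested Tweedle genes passed towards heavy fractions, and none passed towards light fractions. Their median differences were 2.18 and 1.13. Each of these 2 families had 24 measured genes, and those not tested were under the signal limit. That limit was set on a mean that takes in the heavy arrays, so a gene could enter through the fractions where it was high. The counts are therefore set in part by the filter. Of 24 tested genes of the Cpr family of cuticular proteins (66 measured), 8 passed towards heavy fractions, with a median of 0.14, and none towards light, beside 38.9% of all tested genes towards heavy.

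PPO1 encodes a prophenoloxidase made by crystal cells, the hemocytes that melanize wounds. It read 7.49, 9.32 and 10.66 in the heavy fractions of gradient 1 and 8.10, 9.91 and 9.61 in those of gradient 2, against 6.35 and 6.43 in the light fractions of gradient 1 and 5.92 and 6.42 in those of gradient 2. The serpin Spn43Aa differed by 2.84 ± 0.03, the acyl-CoA synthetase gene Acsx3 by 2.92 ± 0.13 and Oat, the mitochondrial ornithine aminotransferase, by 2.91 ± 0.24 (SD, n = 2). Gbp2, a growth-blocking peptide gene, differed by 2.87 ± 0.08 (SD, n = 2), although its light fractions, at 3.58 to 4.06, were at the floor of the array. CG1316, Secp43 and CG7655 completed the 12.

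**Figure D2:**
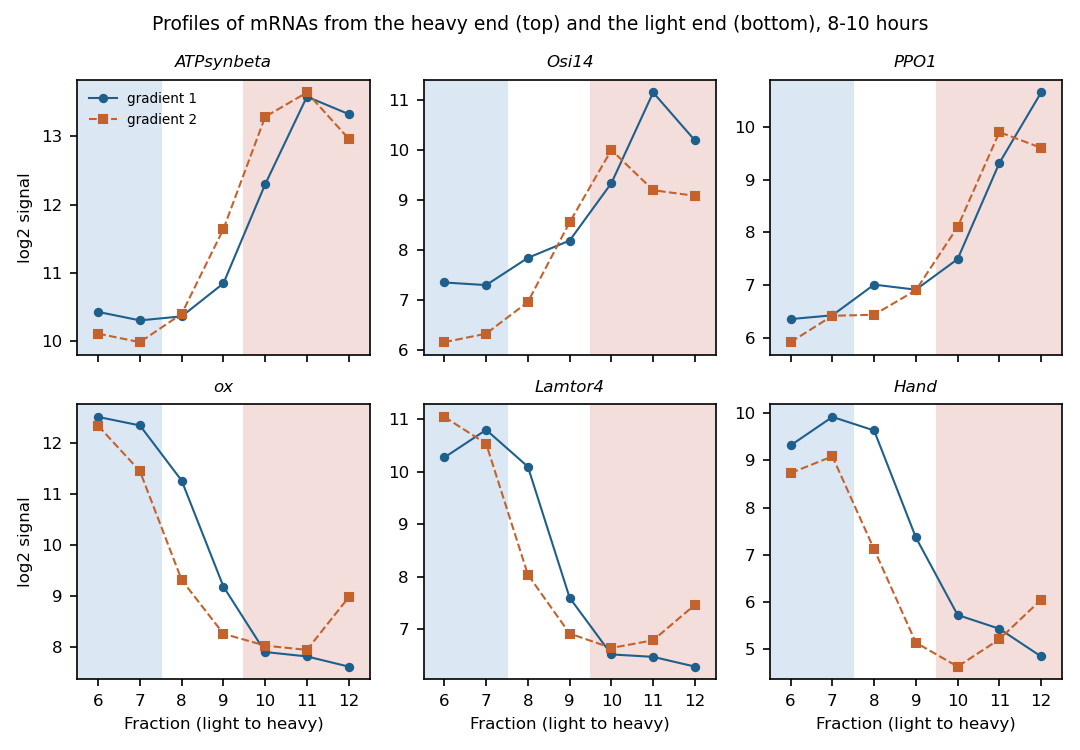
RMA log2 signal (y axis, its own scale in each panel) in fractions 6 to 12 (x axis) of gradient 1 (circles) and gradient 2 (squares) for 3 heavy-end mRNAs (top) and 3 light-end mRNAs (bottom). Shading marks the heavy fractions 10-12 and the light fractions 6-7, and the curves of gradient 2 lie to the left of those of gradient 1 in the fall of the light-end mRNAs, as for Hand, which is at 7.37 in fraction 9 of gradient 1 and at 5.14 in that of gradient 2.

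Nuclear genes of the respiratory chain and ATP synthase were split between the classes, with most higher in light fractions. Of 49 tested genes of the list, 7 passed towards heavy fractions and 35 towards light fractions (against 38.9% and 25.6% of all genes), and the median was -1.60. On the light side stood the complex I subunits ND-MNLL (-3.95) and ND-B14 (-3.29) and the cytochrome oxidase subunit COX7C (-3.11). On the heavy side, besides ATPsynbeta, stood blw, the alpha subunit of ATP synthase (1.51), and the complex I subunits ND-75 (1.56) and ND-51 (1.54). Subunits of one enzyme therefore lay far apart: in the heavy fractions ND-75 read 9.08 to 10.39 and ND-MNLL 7.11 to 8.53, against 8.17 to 8.43 for ND-75 and 10.52 to 12.17 for ND-MNLL in the light fractions. These are levels of different probe sets, so that only the difference between fractions of each gene is to be compared.

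Mitochondrial ribosomal protein genes spread as widely. Of 69 tested, 20 passed towards heavy and 36 towards light fractions, beside 38.9% and 25.6% of all tested genes. The median of the list was -0.61, and it was -0.22 in gradient 1 and -0.90 in gradient 2. The lowest were mRpL55 (-3.73) and mRpL33 (-3.41), and the highest were mRpL3 (2.23) and mRpS5 (2.36). Among 8 tested import proteins with the symbols Tim or Tom, a group read off the symbols after the values had been seen, 6 passed towards light fractions, Tim8 (-3.68) and Tom7 (-3.19) first. Tom70 (1.68), a receptor for precursor proteins, and Tom40 (0.84), the channel of the outer membrane, passed towards heavy fractions.

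Cytosolic ribosomal protein genes were found on the light side. None of 20 tested genes of the large subunit and none of 11 of the small subunit passed towards heavy fractions, while 16 and 11 passed towards light fractions. All tested genes had 38.9% towards heavy and 25.6% towards light fractions. The medians of the large and small subunit lists were -1.30 and -1.06, and RpL39 (-2.70) and RpS21 (-2.56) were the lowest. RpL39 read 9.96 to 10.12 in the heavy fractions of gradient 1 and 10.63 to 11.27 in those of gradient 2, against 13.37 and 12.95 in the light fractions of gradient 1 and 13.46 and 12.74 in those of gradient 2. The lists hold 49 and 34 genes, and the rest had no probe set with a single gene symbol, RpL36 among them.

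Other parts of the translation machinery lay elsewhere. Of 19 tested aminoacyl-tRNA synthetases, the enzymes that charge tRNAs, 18 passed towards heavy fractions, with a median of 1.38. alpha-PheRS (2.34) and SerRS (2.30) led, and PheRS-m, the mitochondrial phenylalanyl enzyme, passed towards light fractions at -0.58. Initiation factors were mixed, with a median of 0.20. They had 7 of 25 towards heavy and 5 towards light fractions, beside 38.9% and 25.6% of all tested genes. eIF6, which keeps the large subunit from joining, had the highest value (1.74), and eIF1, which acts in start codon choice, the lowest (-1.58).

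Subunits of large complexes are read here against the 38.9% of all tested genes that passed towards heavy and the 25.6% that passed towards light fractions. Of 26 tested proteasome genes, 21 passed towards heavy fractions and 0 towards light fractions in limma, with a median of 1.52. Rpn3 and Rpt4 of the regulatory particle reached 2.54 and 2.50. Of 27 tested nucleoporin genes, 22 passed towards heavy fractions and 0 towards light fractions, with a median of 1.02, and mbo (1.93) and Nup43 (1.92) were highest. Rpn3 read 10.59, 11.66 and 10.95 in the heavy fractions of gradient 1 and 11.71, 11.44 and 10.50 in those of gradient 2, against 8.54 and 8.61 in the light fractions of gradient 1 and 8.53 and 8.73 in those of gradient 2.

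For DNA replication, 21 of 31 tested genes passed towards heavy and 6 towards light fractions, beside 38.9% and 25.6% of all tested genes. The median of the list was 1.07. The primase subunit Prim1 (2.82), the flap endonuclease Fen1 (2.56), the large subunit of the single-strand binding protein, RPA1 (2.34), and the helicase subunit Mcm5 (2.29) were among the high ones. The small subunit of the same binding protein, RPA3, was at -2.80, and the GINS subunit Sld5 at -1.95. RPA1 and RPA3 act in one complex, and their differences were of opposite sign in both gradients (2.05 and 2.63 for RPA1, -2.94 and -2.67 for RPA3).

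Spliceosomal proteins parted in the same manner, with 12 of 26 towards heavy and 9 towards light fractions and a median of 0.26. All tested genes had 38.9% towards heavy and 25.6% towards light fractions. The core protein SNRPG (-3.13) and Sf3b6 (-3.51) were lowest, and snRNP-U1-70K (1.77) and noi (1.49) were highest. Sf3b6 and Sf3b2, which belong to one subcomplex, stood at -3.51 and 1.40. Glycolysis had 6 of 9 tested genes towards heavy and 0 towards light fractions, led by the aldolase Ald1 (2.08). Tubulins and actins had 5 of 7 towards heavy fractions, with betaTub97EF at 2.04, and 1 towards light fractions, the maternal alphaTub67C, at -0.59.

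**Figure D3:**
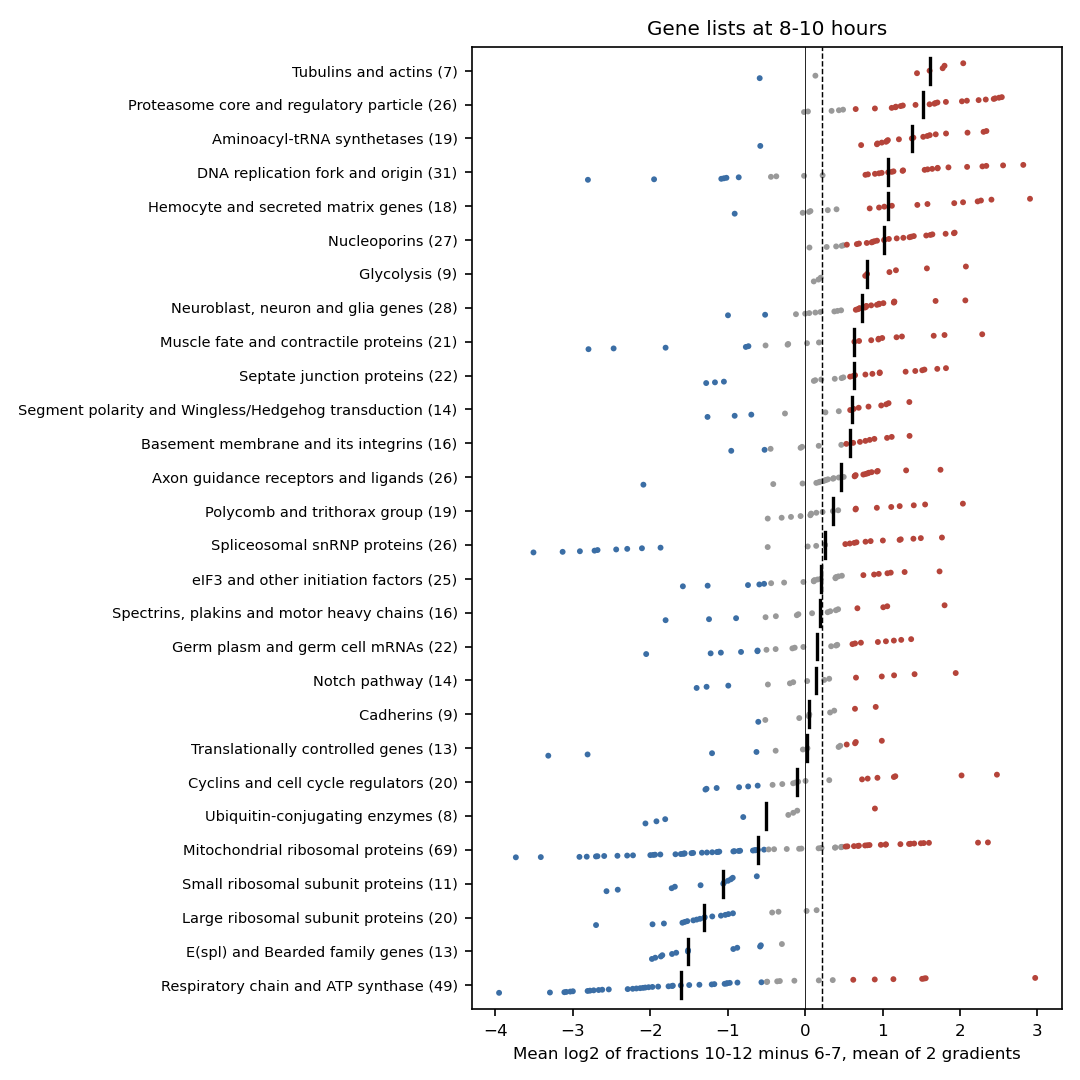
Heavy minus light difference (x axis, mean log2 of fractions 10-12 minus 6-7, averaged over 2 gradients) of the tested members of each gene list shown, with the number tested in brackets, ordered by the list's median (black bar). Colour gives the limma call towards heavy (red) or light fractions (blue) or none (grey), the dashed line is the median of all tested genes (0.22), and medians run from -1.60 for the respiratory chain to 1.61 for tubulins and actins.

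Among developmental genes, those of the Enhancer of split and Bearded families, which are linked to Notch signalling, were light. Of 13 tested, 0 passed towards heavy and 12 towards light fractions, beside 38.9% and 25.6% of all tested genes. The median of the 13 was -1.51, and Tom, at -0.30 in the mean and -0.29 and -0.30 in the gradients, did not pass. Brd (-1.98) and E(spl)m2-BFM (-1.93) were the lowest. Brd read 10.28, 9.92 and 10.10 in the heavy fractions of gradient 1 and 10.52, 10.73 and 11.35 in those of gradient 2, against 12.07 and 12.34 in the light fractions of gradient 1 and 12.58 and 12.85 in those of gradient 2.

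The Notch pathway itself was mixed, with 5 of 14 tested genes (35.7%) towards heavy and 3 (21.4%) towards light fractions. These shares were near the 38.9% and 25.6% of all tested genes. O-fut1, which adds fucose to Notch, was at 1.94, and H, a co-repressor of Notch targets, at -1.40. Segment polarity and Wingless and Hedgehog transduction had 8 of 14 towards heavy and 3 towards light fractions, between gsb (1.35), a paired-domain factor, and Axn (-1.26), the scaffold that destabilizes Armadillo. Of 4 tested homeotic genes and cofactors, Scr was at 1.04 and Antp at -1.38, and for Antp the gradients gave -2.03 and -0.74.

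Neural genes had 18 of 28 towards heavy fractions (38.9% of all tested genes) and 2 towards light (25.6%), with a median of 0.74. The sodium pump subunit nrv3 (2.07) and the adhesion protein Nrt (1.68) led, and the zinc finger factor nerfin-1 was at -0.99. In unfractionated 8-10 hour RNA nrv3 read only 4.325 and 5.274, the first of these near the floor of the array. Axon guidance genes had 12 of 26 towards heavy fractions, beside the same 38.9%, and 1 towards light, caps (-2.09), for which the gradients gave -2.96 and -1.21. Septate junction genes had 13 of 22 towards heavy fractions, led by Tsf2 (1.82), and 3 towards light, with cold lowest (-1.28). Genes of hemocytes and secreted matrix had 12 of 18 towards heavy fractions and 1 towards light, the GATA factor srp (-0.91), with PPO1 and the chitinase-like Idgf3 (2.41) highest.

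Muscle genes spread over nearly the whole range, with 11 of 21 towards heavy and 5 towards light fractions, beside 38.9% and 25.6% of all tested genes. Tropomyosin Tm2 (2.29) and actin Act87E (1.80) were heavy. The myosin light chain Mlc2 (-2.80) and the LIM protein Mlp60A (-2.47) were light. Of 19 Polycomb and trithorax group genes, 8 (42.1%) passed towards heavy fractions, near the share of all tested genes, led by the histone-binding Caf1-55 (2.04). In this list 0 passed towards light fractions. Where 0 members of a list passed in one direction in limma, 0 also did at an unadjusted p below 0.05, except for esc among these (-0.48). Among cyclins and cell cycle regulators 7 of 20 (35%) passed towards heavy and 6 (30%) towards light fractions, near the shares of all tested genes. The kinase aurB (2.48) and the anaphase activator fzy (2.02) stood far above CycC (-1.29).

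Some transcripts were high at both ends of the polysome fractions and low between them, a shape that the heavy minus light difference averages away. A gene was counted as 2-peaked, by a rule set after the profiles had been seen, where fractions 6 and 12 both exceeded fraction 9 by over 0.5 in both gradients. There were 259 such genes (3.51% of those tested). In the limma comparison 32 of them passed towards heavy and 33 towards light fractions, beside 38.9% and 25.6% of all tested genes. The median difference of the 259 was 0.02. A limit of 1 in place of 0.5 left 30 genes and a limit of 0.25 gave 573.

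The 2-peaked shape, held by 3.51% of all tested genes, was found in 7 of 16 tested spectrins, plakins and motor heavy chains, 4 of 9 cadherins, 9 of 16 basement membrane proteins and integrins, and 7 of 26 axon guidance genes. In limma these 4 lists had 4, 2, 9 and 12 members towards heavy and 3, 1, 2 and 1 towards light fractions. All tested genes had 38.9% towards heavy and 25.6% towards light fractions. The shape was also found in 6 of 22 germ plasm genes (osk, BicC, nanos, tud, smg and pum), 5 of 21 muscle genes (bt, Mlp84B, sls, sns and kirre) and 4 of 18 hemocyte and matrix genes (Pvr, nrm, drpr and vkg). It was found in none of the tested genes of the proteasome, respiratory chain, ribosomal protein, aminoacyl-tRNA synthetase and DNA replication lists. shot encodes a spectraplakin that links actin to microtubules. It passed towards light fractions (-0.89). It read 8.87, 9.40 and 9.83 in fractions 10 to 12 of gradient 1 and 9.04, 9.60 and 9.86 in those of gradient 2, against 10.77 and 10.37 in fractions 6 and 7 of gradient 1 and 10.59 and 9.55 in those of gradient 2. Between them, fraction 9 stood at 8.62 in gradient 1 and 8.83 in gradient 2.

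For the neural cadherin CadN, fraction 12 was 1.78 and 1.91 above fraction 9 in the gradients and fraction 6 was 2.08 and 1.25 above it. For the axonal receptor Dscam1 these values were 1.54 and 1.63 for fraction 12 and 1.69 and 1.44 for fraction 6. The dynein heavy chain Dhc64C, the beta-heavy spectrin kst and the atypical cadherin stan had the same shape. Their mean heavy minus light differences were -0.11, -0.38 and -0.60, of which that of stan passed. The muscle giants sls (-0.51) and bt (-1.80) were also 2-peaked, whereas Msp300 (-1.24) was high in light fractions with no second peak of that size. Of the 259 genes, 106 (40.9%) met the same rule at 4-6 hours, against 2.32% of all tested genes, and 64 (24.7%) met it at 0-2 hours, against 3.23%.

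In the EDTA gradient, transcripts with 2 peaks read higher in the dense pools than in the top of the gradient. Pool 10-12 was 0.93 above the pool of fractions 1-5 at the median of the 259 genes, against -0.00 over all tested genes, and pool 6-7 was 0.10 above it, against -0.69. The shot mRNA read 11.53 in pool 10-12 and 11.54 in pool 6-7, against 9.21 in the top pool. This is 1 gradient without replicate, and the difference was not tested.

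**Figure D4:**
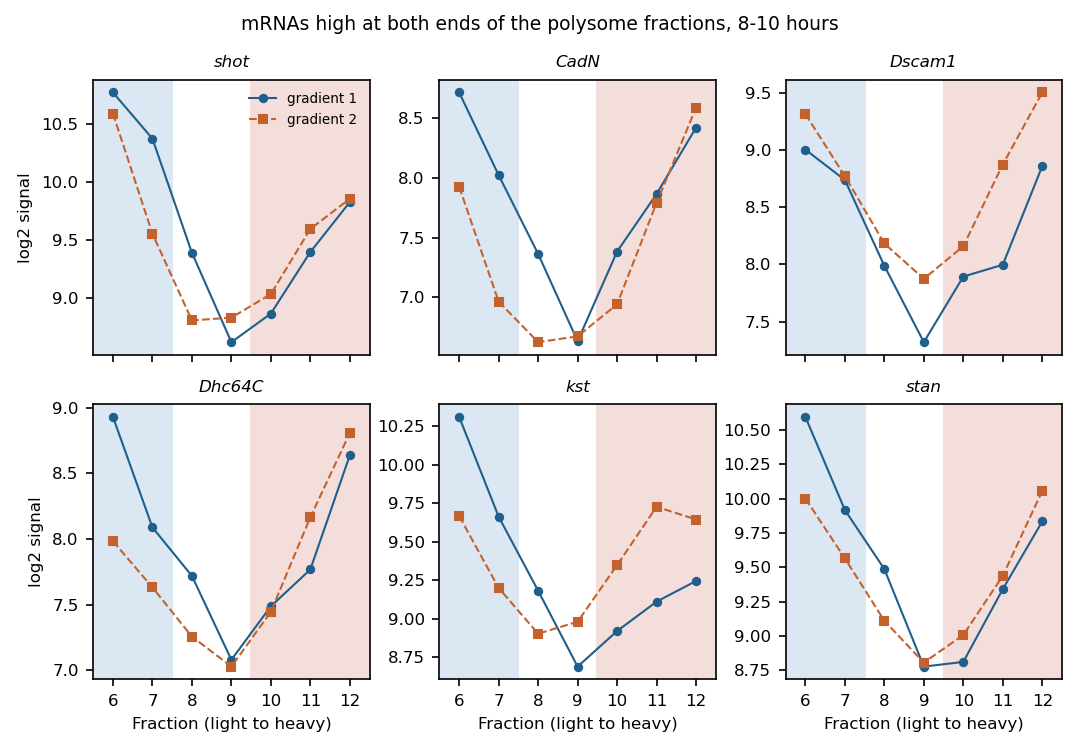
RMA log2 signal (y axis, its own scale in each panel) in fractions 6 to 12 (x axis) for 6 mRNAs of cytoskeletal and surface proteins in gradient 1 (circles) and gradient 2 (squares), with the light fractions 6-7 and heavy fractions 10-12 shaded. Each curve is lowest in fraction 8 or 9, as for CadN, which in fraction 12 is 1.78 and 1.91 above fraction 9.

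Of 6 genes taken from the study, 5 could be named on the array. The mRNA of the junction protein alpha-Cat was higher in heavy fractions by 1.36 ± 0.30 (SD, n = 2) and highest in fraction 12 in gradient 1 and fraction 11 in gradient 2. The secreted protein gene fat-spondin was higher in heavy fractions by 2.27 ± 0.18, and the aminopeptidase gene ApepP by 0.63 ± 0.44 (SD, n = 2). The RNA-binding regulators stau and smg had differences of -0.13 ± 0.09 and -0.02 ± 0.30 (SD, n = 2), neither of which passed.

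Of 13 tested genes with known translational control, 4 passed towards heavy and 4 towards light fractions (30.8% each), beside 38.9% and 25.6% of all tested genes. The stress-response factor crc, whose fly mRNA holds upstream reading frames, was lowest at -3.31, with -4.00 in gradient 1 and -2.63 in gradient 2, followed by the splicing regulator tra2 (-2.81) and the antizyme gene Oda (-1.20), and cad was highest at 0.99. Germ plasm genes had 8 of 22 (36.4%) towards heavy and 6 (27.3%) towards light fractions, near the shares of all tested genes. me31B, an RNA helicase of storage granules, was at 1.37, cta at -2.05, osk at -1.22 and nanos at -0.38, and nanos did not pass.

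Ubiquitin-conjugating enzymes had 1 of 8 towards heavy, vih (0.90), and 4 towards light fractions, Ubc7 lowest (-2.06), beside 38.9% and 25.6% of all tested genes. Of 3 histone variants, cid, the centromeric histone, was at 0.57 and His2Av at -0.51. Of 35 odorant and gustatory receptor genes measured, 0 passed the signal limit, so that limma was run on none of them.

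Opposite signs in the 2 gradients, ranked by the smaller of the 2 absolute values, were largest for CG7294 (0.60 in gradient 1 and -0.73 in gradient 2), tey (-0.68 and 0.65) and Vps2 (0.58 and -0.56). CG7294 and Vps2 were highest in fraction 9 of gradient 1 and fraction 8 of gradient 2, a narrow peak next to the fractions compared. Of the called genes, 8 had opposite signs in the gradients.

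To ask whether the distribution was particular to the age, the heavy minus light difference at 8-10 hours was set against that at 4-6 hours in a limma fit over 6 gradients. Of 7367 genes, 443 (6.01%) passed, 319 (4.33%) shifted to heavy fractions at 8-10 hours and 124 (1.68%) to light fractions. Over probe sets 508 passed, and 280 without gradient 1 of 4-6 hours. fat-spondin had differences of 2.14 and 2.40 at 8-10 hours, against -0.63 and -0.69 at 4-6 hours (2.93 ± 0.23, SE, adjusted p = 1.3e-04). Lsd-1, a perilipin of lipid droplets, had 1.22 and 1.98 at 8-10 hours, against -0.88 and -1.20 at 4-6 hours, while its unfractionated level was 6.80 and 7.03 at 8-10 hours, against 5.85 and 5.98 at 4-6 hours. CG14111 (2.65), CG5335 (2.39) and CG5096 (2.22) had the other large positive changes. CG14111 was not high in heavy fractions, with -0.34 and -0.56 at 8-10 hours, against -3.16 and -3.04 at 4-6 hours, and its unfractionated level was 5.03 and 5.09 at 8-10 hours, against 8.02 and 7.66 at 4-6 hours.

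ApepP moved the other way. Its differences were 0.32 and 0.94 at 8-10 hours, against 2.99 and 3.58 at 4-6 hours (-2.65 ± 0.29, SE, adjusted p = 6.0e-04). Its unfractionated signal was 6.19 and 6.45 at 8-10 hours, against 10.24 and 10.18 at 4-6 hours, so that the transcript was also much rarer. The other large shifts to light fractions, CG8501 (-2.94), NimB3 (-2.55), CG15282 (-2.36) and CG13315 (-2.35), were in genes whose unfractionated signal was higher in both 8-10 hour arrays than in both 4-6 hour arrays, and CG8501 read 6.07 and 6.31 at 8-10 hours, against 4.33 and 4.71 at 4-6 hours. A gene near the floor cannot show a large difference between fractions, and how much this adds to these 4 shifts was not tested.

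With the 8-10 hour gradients aligned by 1 fraction, 1321 genes (17.9%) passed, 545 (7.40%) shifted to heavy and 776 (10.5%) to light fractions. Alignment changed the fractions used at 8-10 hours only, with fewer heavy fractions than at 4-6 hours and other light ones in gradient 1. The number and the balance of shifts thus depended on the fractions compared, and alignment cannot be told apart from that unlike measure. By gene list, hemocyte and secreted matrix genes had 6 of 17 members shifted to heavy fractions, with a median shift of 0.66, and the count was 7 after alignment. Osiris genes had 7 of 11, and Tweedle genes 7 of 16, shifted to heavy fractions. Among all genes 4.33% were so shifted. These families were read off the symbols after the values had been seen. The signal filters took in the 8-10 hour heavy arrays, so that the counts of these families are again set in part by the filter. The median unfractionated signal of the 8 Osiris genes that passed was 8.49 at 8-10 hours, against 6.38 at 4-6 hours, and that of the 14 Tweedle genes that passed was 6.09 at 8-10 hours, against 5.38 at 4-6 hours. None of the respiratory chain, ribosomal, proteasome or nucleoporin lists had over 3 members called in this comparison.

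Against 0-2 hours, when most transcripts are maternal, the shifts were more numerous. Of 7367 genes, 2392 (32.5%) passed, 1478 (20.1%) shifted to heavy fractions at 8-10 hours and 914 (12.4%) to light fractions. Aligned gradients gave 3413 (46.3%), 1760 (23.9%) to heavy and 1653 (22.4%) to light fractions, again with other fractions at 8-10 hours than at 0-2 hours. Over probe sets 3010 passed, against 1176 without gradient 1 and 1390 without gradient 2 of 0-2 hours. Centring the arrays moved the median over probe sets from 0.02 to -0.23 and turned this balance, with 1221 probe sets to heavy and 2100 to light fractions, against 1770 and 1240 before. The largest shift to heavy fractions was that of CG5335, with 1.74 and 1.37 at 8-10 hours, against -2.48 and -2.80 at 0-2 hours (4.19 ± 0.24, SE, adjusted p = 3.3e-06). Desat1, the main fatty acid desaturase, had 2.32 and 2.92 at 8-10 hours, against -0.62 and -0.40 at 0-2 hours, although its unfractionated level was 8.79 and 8.81 at 8-10 hours, against 10.77 and 10.46 at 0-2 hours.

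CG6126 (2.99), TwdlF (2.83) and CG13907 (2.80) also shifted to heavy fractions, and unfractionated TwdlF read 4.27 and 4.58 at 0-2 hours. The largest shifts to light fractions were CG8501 (-3.28), CG34007 (-3.05), CG13315 (-2.95), Elba3 (-2.89), a factor of early embryonic boundary elements, and CG33494 (-2.82). Of these, Elba3 was the one that was more abundant at 0-2 hours, and its differences were 0.57 and 0.72 at 8-10 hours, against 3.64 and 3.43 at 0-2 hours. At 8-10 hours it was under the signal limit.

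Gene lists moved in part. Of all genes, 20.1% shifted to heavy and 12.4% to light fractions at 8-10 hours. Aminoacyl-tRNA synthetases had 12 of 19 genes shifted to heavy fractions (median shift 0.97). DNA replication genes had 14 of 31 shifted to heavy and 2 to light fractions (median 0.56). The centred arrays gave 9 and 10 genes shifted to heavy fractions in these lists. Among the 7116 genes tested both at 8-10 hours and between these ages, they gave 1001 to heavy and 1553 to light fractions. Ribosomal protein genes remained on the light side at each age but less so at 8-10 hours: the large subunit median was -1.81 at 0-2, -1.52 at 4-6 and -1.30 at 8-10 hours, and 9 of 20 genes were shifted to heavy fractions against 0-2 hours (4 with centred arrays) and 1 to light. Respiratory chain genes had 1 of 49 shifted to heavy and 6 to light fractions, beside 12.4% of all genes to light. With centred arrays they had 0 to heavy and 16 to light fractions, beside 1553 of the 7116 genes to light.

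**Figure D5:**
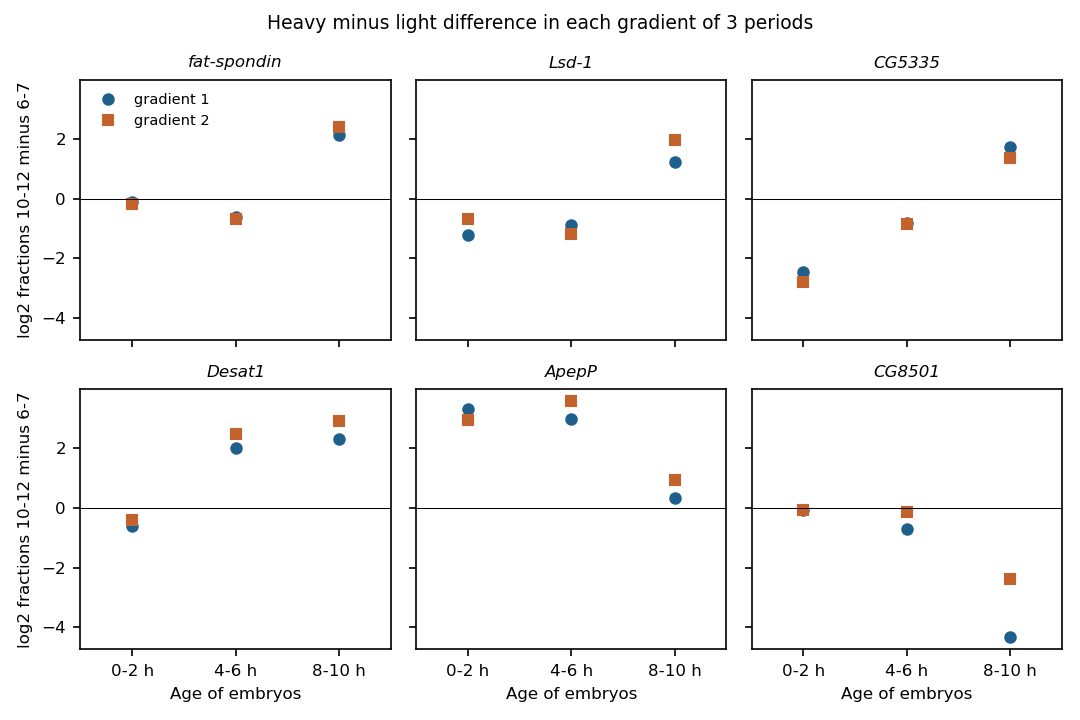
Heavy minus light difference (y axis, mean log2 of fractions 10-12 minus 6-7) in gradient 1 (circles) and gradient 2 (squares) at ages of 0-2 h, 4-6 h and 8-10 h (x axis) for 6 genes with large shifts between ages. fat-spondin, Lsd-1 and CG5335 are below 0 at 4-6 hours and above 0 at 8-10 hours in both gradients, Desat1 differs mainly from 0-2 hours, and ApepP and CG8501 are lower at 8-10 hours.

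The EDTA gradient asked whether the position of a transcript depended on intact ribosomes. In it, the heavy pool exceeded the light pool by 0.67 at the median of the tested probe sets, against 0.14 in the untreated gradients, so that the whole scale was moved. The test value was the untreated minus the EDTA difference, in a limma fit over 9 gradients in which the single EDTA gradient of each age was taken to vary like the others. Of 7374 genes, 4383 (59.4%) passed, 1325 (18.0%) higher untreated and 3058 (41.5%) lower untreated. With centred arrays 5116 (69.4%) passed and the balance turned, with 3473 (47.1%) higher and 1643 (22.3%) lower. The genes named below for this test had the same sign on both scales.

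The 12 light-end genes had differences of 0.46 to 2.42 with EDTA, against -4.50 to -3.63 in the mean of the untreated gradients. With EDTA, 82.8% of all tested genes were above 0 on the deposited scale. With centred arrays, 9 of these 12 were above 0, beside 34.3% of all tested genes, and ox (-0.44), CG14104 (-0.62) and Lamtor4 (-0.35) were below 0. The largest changes were in Tim8, udd, CG14966, the selenoprotein gene BthD and CG14483. Tim8 read 8.67 in pool 10-12 and 5.51 in pool 6-7 with EDTA, a difference of 3.16, against -3.94 and -3.42 untreated (untreated minus EDTA -6.84 ± 0.33, SE, adjusted p = 1.9e-07). Its highest EDTA reading was 9.53, in the top pool of fractions 1-5, and pool 8-9 read 8.21. udd, a factor of ribosomal RNA transcription, had 3.52 with EDTA, against -3.25 and -3.04 untreated.

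At the heavy end, ATPsynbeta read 11.97 in pool 10-12 and 12.14 in pool 6-7 with EDTA, a difference of -0.17, against 2.70 and 3.24 untreated (untreated minus EDTA 3.14 ± 0.44, SE, adjusted p = 6.7e-05). Osi7 (3.72), CG43123 (3.07), TwdlY (2.99) and CG1316 (2.97) had the other large positive values of untreated minus EDTA. CG43123 did not pass in the untreated gradients, where it read no more than 5.16. Over the 12 heavy-end genes the EDTA differences ran from -0.17 to 2.56, the highest in TwdlF, which read 7.73 in pool 10-12 and 5.18 in pool 6-7. With EDTA the median difference was 0.78 for the 1312 genes above 1 in both gradients and 1.02 for the 1130 genes below -1, against 0.74 for all tested genes, and across genes the EDTA and untreated differences correlated at -0.07, a description over 1 set of arrays.

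Unfractionated 8-10 hour RNA had a median log2 signal of 8.59 for the 1312 heavy genes and 8.23 for the 1130 light genes, against 7.84 for all tested genes. In linear signal, fractions 10-12 held a median of 67.2% of the signal of fractions 6-12 in gradient 1 and 65.3% in gradient 2 for the heavy genes. The light genes had 16.1% and 19.3%, and all tested genes 47.0% and 43.4%. Both sets were chosen by their difference in these same arrays, so that the order of the shares follows from the choice. These shares were worked out on normalized signal, and they rank genes without measuring amounts.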

How the data were processed

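RNA from each fraction was labelled in equal volume and hybridised to Affymetrix Drosophila arrays. The deposited values are log2 signals computed by the authors with RMA, which corrects the background, normalizes all arrays to one distribution and summarises the probes of each probe set. Whether the arrays of all ages were normalized together is not given in the sources used here. Control probe sets were removed, leaving 18769. Of these, 13647 had 1 gene symbol, 402 several and 4720 none in the array annotation. For a gene, the probe set with the highest mean signal over the 16 untreated 8-10 hour arrays was used.

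The difference of each gradient was the input to limma (version 3.58.1, R 4.3.3), with p-values adjusted over all 9384 probe sets whose mean lay in the upper 50% (4.81 or more on the log2 scale). Comparisons of ages used the 48 untreated gradient arrays for that filter. On simulated data for the 8-10 hour comparison (9384 probe sets), 81.5% of changes of 1 and 100.0% of changes of 2 (log2) were recovered. The comparison of ages recovered 20.5% and 100.0%, and that with EDTA 6.5% and 93.5%, of the same changes (9384 probe sets each). The simulations changed only a small part of the probe sets, whereas 62.9% passed in the data, and the adjustment depends on that share. All of them used the common spread of the 8-10 hour fit. The recovered shares therefore do not carry over to the data. The number of arrays limits the precision.

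The comparison, the members and the 32 gene lists were chosen with earlier results of these data known, and 1 list is not reported here. Named genes were the 12 furthest from 0 in both gradients at each end, the extremes of each list (2 at each end), 6 genes of the study, the 5 with the largest change in each direction per contrast, and the 3 with the largest opposite signs. Protein lengths and sequences were not used here.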

Additional observations from a re-analysis of the deposited data

Results flagged for a closer look

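The results given here are genes whose heavy minus light difference at 8-10 hours departed from that of an earlier age in the limma fit over 6 gradients. Groups of gradients held 2 each, too few for a test of single outlying samples.

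Against 4-6 hours, the change was 2.93 for fat-spondin, 2.65 for CG14111, 2.64 for Lsd-1, 2.39 for CG5335 and 2.22 for CG5096. It was -2.94 for CG8501, -2.65 for ApepP, -2.55 for NimB3, -2.36 for CG15282 and -2.35 for CG13315.

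Against 0-2 hours, the change was 4.19 for CG5335, 3.13 for Desat1, 2.99 for CG6126, 2.83 for TwdlF, 2.80 for CG13907 and 2.42 for fat-spondin. It was -3.28 for CG8501, -3.05 for CG34007, -2.95 for CG13315, -2.89 for Elba3, -2.82 for CG33494 and -2.51 for ApepP. Both comparisons share the 8-10 hour gradients.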

How the results depend on the processing

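The 5900 probe sets called between heavy and light fractions became 3543 with the top 25% of signal and 1620 with the gradients shifted by 1 fraction in the direction opposite to their offset (644 towards heavy and 976 towards light fractions). A size rule without a test, past 1 in both gradients, took 3000. Single gradients gave 5484 to 5733, with the spread then taken from the gradients of 0-2 and 4-6 hours and the lone gradient assumed to vary like them, as in the other fits with 1 gradient left out. The 10 arrays fitted one by one gave 5367 with gradient as a replicate block and 5336 without. Against 4-6 hours, 508 calls became 948 with a replicate block, 773 with no signal filter and 1575 with aligned gradients (647 to heavy and 928 to light fractions), an alternative chosen after seeing the data, and 280 to 615 with 1 gradient left out. In the aligned fit the fractions taken at 8-10 hours were not those taken at 4-6 hours. Deviations of same-numbered gradients correlated at -0.18 (0-2 and 4-6 hours), -0.17 (0-2 and 8-10 hours) and 0.43 (4-6 and 8-10 hours), so that the replicate numbers did not pair gradients at every pair of ages. Against 0-2 hours, 3010 calls became 1176 to 2657 with 1 gradient left out, and 3523 with the block. The EDTA calls, 5629, became 10810 of all 18769 probe sets with no signal filter, and 5397 to 5476 with 1 gradient left out.

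Of named genes whose sign changed, those listed below did not pass in the main test. Mlp84B did pass, towards light fractions (-0.76), with -1.54 in gradient 1 and 0.010 in gradient 2. With aligned gradients the difference was 0.15 for Dhc64C, 0.19 for CadN, 0.15 for stau, 0.11 for smg, 0.20 for tey and -0.76 for Vps2. The opposite shift gave 0.081 for Dhc64C, 0.32 for CadN, 0.028 for stau, 0.18 for smg, 0.33 for tey and -0.28 for Vps2. Fractions 11-12 as heavy gave 0.19 for Dhc64C, 0.26 for CadN, 0.18 for smg, 0.23 for tey and -0.19 for Vps2, and fractions 10-11 gave 0.0029 for CG7294. Fraction 7 as light gave 0.19 for Dhc64C, 0.34 for CadN, 0.12 for stau, 0.16 for smg, 0.26 for tey and -0.43 for Vps2, and fraction 6 gave 0.23 for CG7294. The mean fraction number gave 0.068 for Dhc64C, 0.10 for CadN, 0.037 for smg, 0.13 for tey and -0.19 for Vps2. Linear averaging gave 0.033 for tey and 0.0034 for CG7294, and centring gave -0.030 for Vps2. With 1 gradient each, the range was -1.23 to 0.21 for sls, -0.89 to 0.14 for kst, -0.54 to 0.33 for Dhc64C, -0.48 to 0.33 for CadN, -0.23 to 0.19 for smg, -0.68 to 0.65 for tey, -0.56 to 0.58 for Vps2, -0.73 to 0.60 for CG7294 and -0.032 to 0.70 for CG43123. The cause was not tested. The calls of shot, stan, trol and alphaTub67C were lost without gradient 1, and those of ApepP and PheRS-m without gradient 2.

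With 2 gradients and 1 common standard error, calls rest on size, and 31 of 457 genes with over 1 tested probe set had probe sets that passed in opposite directions. The planned description by protein length was not run. Signal near the floor hides differences, and linear shares depend on the normalization.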
